A study of Mus musculus with 7 samples.

Results

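Across the autosomes of mouse embryonic stem cells (mESCs), 391 of 21418 starts of protein-coding genes carried H3K4me3 at over 8 times the autosomal mean within 2 kb on each side while H3K27ac stayed under 2 times the mean. The H3K27ac condition had to hold in both F123 and J1 cells. Gene starts were the 5′ ends of protein-coding gene records in GENCODE M1 on mm9. H3K4me3 passed 8 times the mean at 7373 starts, so that these low-H3K27ac promoters were 5.30% of them, 6321 were acetylated at 2 times the mean or more in both lines, and 661 in 1 line. The ChIP-seq values chose these promoters and are given as a description, whereas RNA-seq was not used in the choice. F123 is an F1 hybrid mESC line whose parents are the strains CAST and 129, and J1 is an mESC line of 129 background. ChIP-seq was performed for H3K4me3 in F123 and for H3K27ac in F123 and J1. RNA-seq was performed on wild type F123 cells and on 3 F123 clones in which the distal super-enhancer (SE) of Sox2 was deleted by CRISPR/Cas9. CAST+/129- lacks it on the 129 allele, CAST-/129+ lacks it on the CAST allele, and in CAST-/129- both copies are gone. Every condition was 1 library and every genotype 1 clone, so that differences could not be checked in replicates, and the clones had been on feeder cells before passages on gelatin without feeders.

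Trimethylation of lysine 4 of histone H3 is placed at CpG-rich gene starts by the Set1 and MLL complexes, and it can be present whether or not a gene is strongly transcribed. Acetylation of lysine 27 is placed by p300 and CBP at promoters and enhancers in use, and the same residue cannot be acetylated while it carries the methylation placed by Polycomb repressive complex 2. In mESCs, promoters with H3K4me3 and without acetylation are best known from developmental regulators that also carry Polycomb methylation. Neither H3K27me3 nor an input library was measured in the files used here.

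The sequences below show which kind of DNA these starts lie in. They cover 249 bases before the start base, the start base itself and the 50 bases after it. They are read from mm9 in the direction of transcription, in lower case with each CG dinucleotide in capitals. The 6 were chosen because Zhx1 had the highest H3K4me3 of the low-H3K27ac promoters, Eif3h had the highest wild type RNA level, Igfbp7 and Eomes had the largest upward log2 ratios in the mutant clones, Sohlh2 was lower in all of them, and Plxnc1 shows a start dense in CG with a low level of RNA.
Zhx1, chr15:57907994-57908293, minus strand of mm9: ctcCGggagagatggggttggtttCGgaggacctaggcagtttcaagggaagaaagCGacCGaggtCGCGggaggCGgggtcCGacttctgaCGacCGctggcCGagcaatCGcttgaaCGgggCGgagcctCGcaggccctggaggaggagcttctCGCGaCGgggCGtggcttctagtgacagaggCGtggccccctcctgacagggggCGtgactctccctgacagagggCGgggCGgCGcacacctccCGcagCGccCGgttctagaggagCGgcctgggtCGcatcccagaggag
Eif3h, chr15:51696977-51697276, minus strand of mm9: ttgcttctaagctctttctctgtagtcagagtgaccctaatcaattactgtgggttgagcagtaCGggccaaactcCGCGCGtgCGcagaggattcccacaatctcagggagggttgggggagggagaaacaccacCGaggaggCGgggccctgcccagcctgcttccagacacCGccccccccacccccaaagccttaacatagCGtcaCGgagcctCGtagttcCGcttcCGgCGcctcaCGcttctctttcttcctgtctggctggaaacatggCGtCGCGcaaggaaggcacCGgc
Sohlh2, chr3:54985701-54986000, plus strand of mm9: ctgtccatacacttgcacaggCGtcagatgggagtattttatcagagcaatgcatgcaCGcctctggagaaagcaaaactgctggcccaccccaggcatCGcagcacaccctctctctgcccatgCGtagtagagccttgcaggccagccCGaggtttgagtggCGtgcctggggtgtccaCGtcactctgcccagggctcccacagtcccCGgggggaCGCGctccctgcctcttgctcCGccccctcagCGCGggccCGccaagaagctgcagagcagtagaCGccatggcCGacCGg
Igfbp7, chr5:77837020-77837319, minus strand of mm9: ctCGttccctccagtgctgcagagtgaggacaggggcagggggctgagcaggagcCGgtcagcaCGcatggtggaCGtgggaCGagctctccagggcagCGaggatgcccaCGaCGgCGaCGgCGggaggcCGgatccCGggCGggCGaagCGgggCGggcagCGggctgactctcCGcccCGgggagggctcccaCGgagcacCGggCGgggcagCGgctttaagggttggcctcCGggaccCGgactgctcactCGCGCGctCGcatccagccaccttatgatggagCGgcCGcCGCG
Eomes, chr9:118387081-118387380, plus strand of mm9: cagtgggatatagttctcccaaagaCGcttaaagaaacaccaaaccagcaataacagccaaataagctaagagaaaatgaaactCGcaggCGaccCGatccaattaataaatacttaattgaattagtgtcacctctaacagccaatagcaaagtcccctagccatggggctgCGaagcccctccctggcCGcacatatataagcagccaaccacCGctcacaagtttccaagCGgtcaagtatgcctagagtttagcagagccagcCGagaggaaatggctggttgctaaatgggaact
Plxnc1, chr10:94407162-94407461, minus strand of mm9: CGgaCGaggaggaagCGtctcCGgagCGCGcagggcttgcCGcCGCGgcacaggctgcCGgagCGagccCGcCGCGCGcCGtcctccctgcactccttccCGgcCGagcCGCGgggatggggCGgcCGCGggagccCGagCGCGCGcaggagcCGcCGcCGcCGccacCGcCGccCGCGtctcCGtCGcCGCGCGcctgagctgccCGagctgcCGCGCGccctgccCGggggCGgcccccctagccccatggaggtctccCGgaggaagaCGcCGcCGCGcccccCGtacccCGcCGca

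The number of CG dinucleotides in these windows was 29 for Zhx1, 19 for Eif3h, 17 for Sohlh2, 34 for Igfbp7, 9 for Eomes and 54 for Plxnc1. Over all 391 windows of this length the median was 23, with a range of 2 to 57, against 24 at the starts acetylated in both lines and 12 over all 21418 starts. Eomes therefore lay at the low end and Plxnc1 near the high end. The letters TATAAA, searched on both strands, were in none of the 6 windows shown. They were present in 26 of the 391 windows (6.65%), in 5.11% of the windows acetylated in both lines and in 13.5% of all windows.

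Read depth differed among the ChIP-seq libraries. There were 7108751 distinct alignments for H3K4me3, 1576875 for H3K27ac in F123 and 7743500 for H3K27ac in J1, with 1.27, 5.10 and 10.5 reads behind each. The autosomal mean was 11.2, 2.50 and 12.3 alignments per window of 4 kb, so that the rule came down to at least 90 alignments of H3K4me3 and at most 4 and 24 of H3K27ac. Exact 95% Poisson intervals at these limits ran from 6.45 to 9.86 times the mean for 90 H3K4me3 alignments, from 0.436 to 4.10 times for 4 alignments in F123 and from 1.25 to 2.91 times for 24 in J1. The upper limit of the interval was under 2 times in J1 at 77 of the 391 starts and in F123 at the 20 that had 0 alignments. Except at these 20, a low value in the F123 library alone therefore could not be told from an enrichment of 2 times or more at this depth. Intervals cover counting error only, and the mapped reads without molecular identifiers are not independent molecules. In RNA-seq, distinct alignments on genes numbered 24891865 for wild type, and 12486419, 6078921 and 5847445 for the clones CAST+/129-, CAST-/129+ and CAST-/129-. Sox2 was at 46.9%, 41.8% and 4.23% of its wild type level in these clones, and the 8 ES cell markers examined all had alignments in every library, with summed levels of 1556 FPKM in wild type and 1269, 1223 and 922 FPKM in the clones.

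H3K4me3 at the low-H3K27ac starts ranged from 8.02 to 19.3 times the mean, with a median of 9.54, and 331 of the 391 lay under 12 times. The starts acetylated in both lines had a median of 13.5 times, so that comparisons below also use their 2359 starts under 12 times. Zhx1, a zinc finger and homeobox repressor, had 217 alignments or 19.3 times the mean (16.9 to 22.1). It stood above the next starts, which were the divergent pair Wbscr22 (16.8 times) and Dnajc30 (16.2 times), Zdhhc14 (16.1 times) and Arpc5 (15.96 times). Zdhhc14 adds palmitate to proteins, and Arpc5 is a subunit of the Arp2/3 complex that nucleates actin. The other 5 of the highest 10 were Atrn, 4930402H24Rik, Arl8b, Rgl1 and Rab12, between 15.3 and 15.7 times the mean. Arl8b and Rab12 are small GTPases of lysosome and membrane transport. Of these 10, Wbscr22 and Dnajc30, Arpc5 and Rgl1, and Atrn and 4930402H24Rik are pairs of neighbours whose windows overlap and share alignments. In all, 68 low-H3K27ac starts lay within 4 kb of another, which leaves 357 separate regions.

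**Figure D1:**
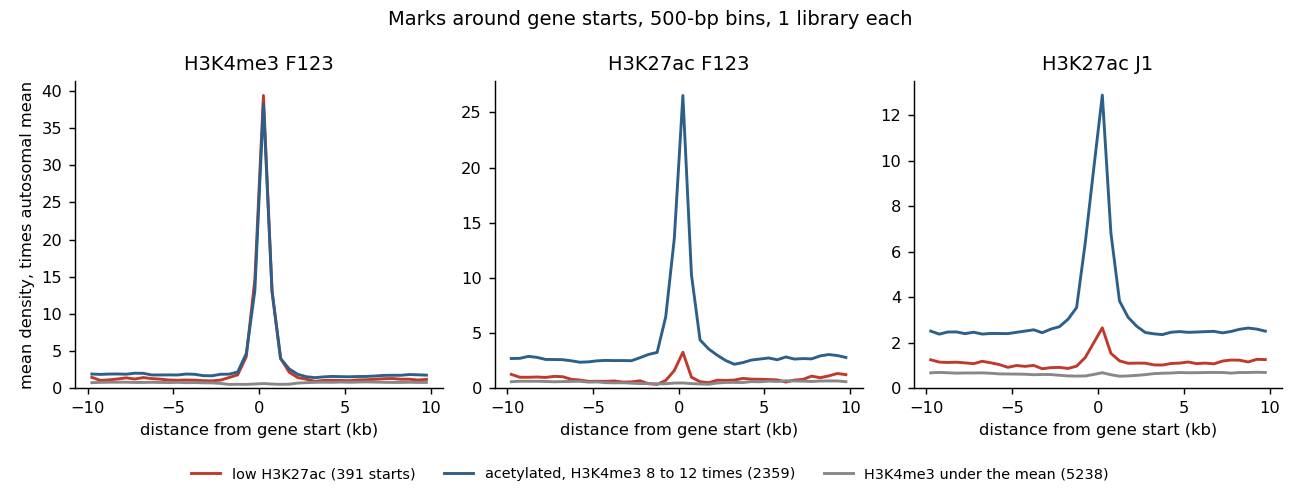
Mean density of H3K4me3 in F123 cells and of H3K27ac in F123 and J1 cells around gene starts, in times the autosomal mean (vertical axes) against distance from the start in kb (horizontal axes), for the 391 low-H3K27ac starts, the 2359 starts acetylated in both lines with H3K4me3 under 12 times, and the 5238 starts with H3K4me3 under the mean. H3K4me3 has a similar shape in the low-H3K27ac and acetylated groups, and H3K27ac of the low-H3K27ac starts keeps a small central peak.

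The H3K4me3 peak of the low-H3K27ac starts had a similar shape to that at acetylated starts. In the 500 bp from the start on, the 331 starts under 12 times averaged 37.7 times the mean, against 38.3 at acetylated starts under 12 times, and the median breadth was 1250 bp in both groups. H3K27ac was low but did not vanish. In the same 500 bp of these 331 starts it averaged 3.27 times the mean in F123 and 2.65 times in J1, against 26.5 and 12.9 times at acetylated starts and 0.475 and 0.681 times at the 5238 starts with H3K4me3 under the mean. Over the 4-kb window of all 391 the medians were 1.20 times in F123 and 1.47 times in J1. At 319 of the 391 genes H3K27ac was under 2 times in both lines at every annotated transcript start, and at the other 72 an alternative start was higher. A 1-kb bin with over 5 times the mean of H3K27ac in J1 lay 2 to 10 kb away from 46 of the 391 starts, from 12.4% of the 331 under 12 times, from 44.8% of the acetylated starts under 12 times and from 7.41% of the starts with H3K4me3 under the mean.

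At the edges of the rule the values were close together. Mff, a receptor of mitochondrial fission, lay just inside with 8.02 times the mean of H3K4me3, and Npas2, a clock transcription factor, just outside with 7.94 times. For H3K27ac in F123, Mfsd6 was inside with 1.6 times and Mcm3, a subunit of the replicative helicase, outside with 2.002 times. Each pair was 1 alignment apart, as were Ttpal at 1.95 times and 8430432A02Rik at 2.04 times in J1. The list depended on the window as well, and a window of 1 kb on each side gave 655 starts that shared 150 with the 391.

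By GC content and CpG frequency, the low-H3K27ac starts were like acetylated ones. The ratio of observed to expected CpG over 500 bp on each side had a median of 0.779 with quartiles of 0.696 and 0.869, and of 0.763 for the 331 under 12 times, against 0.748 at the acetylated starts under 12 times and 0.159 at the starts with H3K4me3 under the mean. GC content of the 331 was 61.6% at the median, against 58.9% and 43.3%. Both a CpG ratio over 0.6 and a GC content over 50% were found at 354 of the 391, which is 90.5%, at 89.1% of the 331, and at 83.6% of the acetylated starts under 12 times. The genes themselves were longer, with a median of 44815 bp for the 331 against 21215 bp. A divergent start within 1 kb was present at 47 of the 391 and at 9.37% of the 331, against 11.0%. The 391 lay on all 19 autosomes, with between 10 and 34 on each.

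Developmental regulators made up a small share of these promoters, near their share of all genes. Gene classes were defined by symbol, and 464 autosomal genes fell in the classes of transcription factors (Hox, other homeobox, forkhead, T-box, Sox, Gata, bHLH, developmental zinc finger and nuclear receptor genes). Of these, 101 passed 8 times the mean of H3K4me3, 75 were acetylated in both lines and 10 were low in H3K27ac, which is 2.56% of the 391, beside 1.19% of the acetylated starts and 2.17% of all genes. As a share of the 101 this was 9.90%, where 5.30% of all starts over 8 times were low in H3K27ac. The 10 were Atoh8, Egr4, Eomes, Foxl2, Foxo6, Pou3f1, Pou4f1, Ppara, Sall3 and Thrb. Sohlh2 and Zhx1, which also encode factors of the bHLH and homeobox kinds, were not on the lists and are not in this count. None of the 40 autosomal Hox genes was among them. Their median H3K4me3 was 3.03 times the mean, and of the 2 that passed 8 times 1 was acetylated in both lines and 1 in 1 line. Of the Gata genes and Wnt ligands 0 passed 8 times the mean of H3K4me3, so that none could be included. None of the 7 Sox genes, 2 FGF ligands and 8 ligands of the TGF-beta family that passed was low in H3K27ac, and among the 6 secreted inhibitors of Wnt and BMP that passed there were 2, Nog and Wif1. The Wnt receptors Fzd1 and Fzd8 and the growth factor receptor Met were included.

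**Figure D2:**
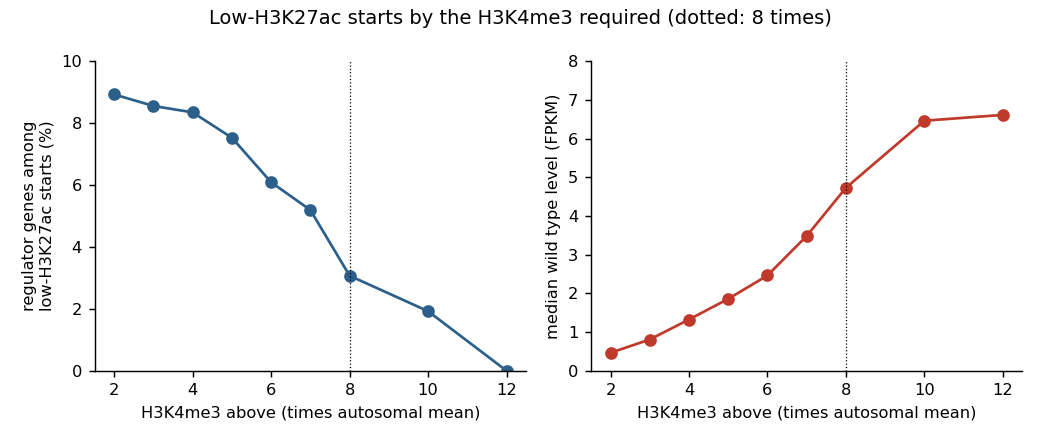
Share of genes of the transcription factor and signalling classes among low-H3K27ac starts in percent (left) and their median wild type RNA level in FPKM (right), against the H3K4me3 enrichment required in times the autosomal mean (horizontal axes). The sets are nested, each point includes all points to its right, and the share of regulators is lower and the RNA level higher where more H3K4me3 is required. Shares among all starts over each threshold are not shown.

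The share of regulators among low-H3K27ac starts depended on how much H3K4me3 was required. Of all autosomal protein-coding genes, 2.17% were in the transcription factor classes and 0.588% in the signalling classes. Over 2 times the mean there were 2869 low-H3K27ac starts, of which 256 (8.92%) were in the transcription factor or signalling classes, 20 of them Hox genes, and the median wild type level was 0.465 FPKM. Over 5 times there were 1143 starts with 86 regulators (7.52%) and 4 Hox genes, and the level was 1.86 FPKM. At 8 times 12 regulators were left (3.07%) and the level was 4.73 FPKM, and over 12 times 0 of 60 starts were in these classes. The classes are lists of symbols and not complete. The sets of low-H3K27ac starts are nested, and H3K4me3 and the class share were read from the same starts, so that this is a description. The class shares among all starts over each threshold were not set beside them. Whether the decline is particular to low-H3K27ac starts was therefore not tested.

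Genes of axon guidance, adhesion and ion transport were present in small numbers. Of all starts over 8 times the mean of H3K4me3, 5.30% were low in H3K27ac. Nrp1, Plxna2, Plxnc1 and Sema6a were 4 (33.3%) of the 12 genes for semaphorins, plexins, netrins, slits and their receptors that passed 8 times. Cacna1h, Clcn7, Kcnab2, Kcnq5 and Trpc1 were 5 (31.25%) of 16 in the class listed by symbol as ion channels. The cadherin genes Cdh4, Cdh22 and Fat4 were 3 (42.9%) of 7. Of 105 solute carriers that passed, 9 (8.57%) were included. Not all guidance and neuronal classes had such shares. Of the 8 Eph receptor and ephrin genes that passed, 0 were low in H3K27ac and 7 were acetylated in both lines. Of 15 synaptic and neuronal genes 1 (6.67%) was low in H3K27ac, and of 5 neurotransmitter and peptide receptors 2 (40%) were. Ribosomal protein genes gave the other extreme, with 72 of 77 acetylated in both lines and 0 low in H3K27ac. No imprinted gene and no olfactory or vomeronasal receptor was included. The 30 classes of this kind held 43 of the 391 genes (11.0%), against 7.59% of the starts acetylated in both lines and 17.0% of all autosomal protein-coding genes. The last share includes 1415 olfactory and vomeronasal receptors, of which 0 passed 8 times the mean of H3K4me3.

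Classes of general cell function were added after the 391 genes had been seen, so that their counts describe the list and support nothing. Membrane traffic and Golgi transport genes numbered 30 (7.67%, beside 2.64% of the starts acetylated in both lines). They included the coat subunits Sec13, Copb1 and Sec24a, the tether Uso1, the SNAREs Stx6, Stx18 and Sec22b, the conserved oligomeric Golgi subunits Cog2 and Cog7 and the TRAPP subunits Trappc2l and Trappc10. Genes of ubiquitin and the proteasome numbered 25 (6.39%, beside 3.56%), kinases and phosphatases 22 (5.63%, beside 2.26%), genes of RNA processing and ribosome assembly 17 (4.35%, beside 2.03%), glycosyltransferases and sulfotransferases 14 (3.58%, beside 0.728%) and genes of the mitochondrial ribosome, respiratory chain and carriers 9 (2.30%, beside 2.34%). Of the 69 genes with high H3K4me3 in the class of glycosyltransferases and sulfotransferases, 14 (20.3%) were low in H3K27ac. The class was listed by symbol, and its 14 genes include Man1a and Pigk, which are neither kind of enzyme. Most of the 14 work in the Golgi, among them Chst15, Chst2, Hs3st5, Hs6st3 and Ust, which add sulfate to sugar chains, and Chpf2, B4galt7 and Ext2, which build proteoglycan chains.

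In wild type cells, the genes at low-H3K27ac promoters were transcribed at lower levels than those at acetylated promoters but were mostly not silent. FPKM values were obtained for the 388 genes with at least 200 bases of exon that belong to 1 gene, and Gm20503, Pou3f1 and 1 of 2 records named BC037034 fell short of that. The median was 4.73 FPKM, with quartiles of 1.11 and 12.04 and a range of 0 to 149, and it was 4.46 FPKM for those under 12 times of H3K4me3. It depended on how the promoters were chosen and reads counted. It was 1.11 FPKM for the 655 starts of a 1-kb window and 1.40 FPKM with H3K27ac under 1 time the mean. With RNA reads in place of distinct alignments it was 2.98 FPKM. Acetylated starts under 12 times of H3K4me3 had a median of 13.4 FPKM with quartiles of 6.21 and 25.6, and the 5075 genes with H3K4me3 under the mean had a median of 0 and an upper quartile of 0.150. The groups overlapped widely. Under 1 FPKM were 90 of 388 (23.2%) and 25.2% of those under 12 times, against 4.94% of the acetylated starts under 12 times and 86.3% of genes with H3K4me3 under the mean. Over 10 FPKM were 119 (30.7%) and 29.2% of those under 12 times, against 60.3% and 5.52%. The low-H3K27ac genes were also lower than acetylated ones within each band of H3K4me3, with medians of 4.41 against 10.4 FPKM from 8 to 9 times, 4.08 against 13.1 from 9 to 10 times, 6.30 against 15.1 from 10 to 12 times and 6.61 against 18.4 from 12 to 16 times. In bulk RNA-seq, fewer cells that transcribe a gene and less RNA per cell cannot be told apart.

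**Figure D3:**
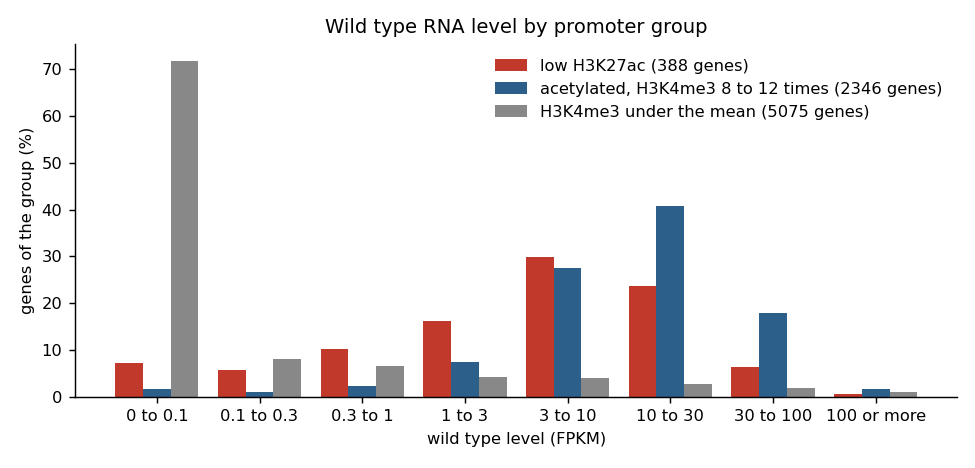
Share of genes of each group in percent (vertical axis) by wild type RNA level in FPKM (horizontal axis, unequal classes that include their lower limit), for the 388 genes with low-H3K27ac starts, 2346 genes acetylated in both lines with H3K4me3 under 12 times, and 5075 genes with H3K4me3 under the mean. The class of 3 to 10 FPKM holds the largest share of low-H3K27ac genes (29.9%), that of 10 to 30 FPKM of acetylated genes (40.7%) and that under 0.1 FPKM of genes with H3K4me3 under the mean (71.8%).

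Eif3h had the highest wild type level among the low-H3K27ac genes. Eif3h, a subunit of translation initiation factor 3, had 4658 alignments or 149 FPKM (145 to 154), with 11.2 times the mean of H3K4me3, 1.20 times of H3K27ac in F123 and 1.55 times in J1. Tbca, a tubulin folding cofactor, followed with 116 FPKM (110 to 122), and then Sohlh2, a bHLH factor known from germ cells, with 68.0 FPKM (65.9 to 70.2). Frg1, Sec13, D10Wsu52e, Copb1, Trappc2l, App and Shcbp1 were between 46.5 and 59.1 FPKM, where D10Wsu52e encodes the RNA ligase also named Rtcb and App the amyloid precursor protein. By class, the median was 19.2 FPKM for the 17 genes of RNA processing, 16.5 for the 9 mitochondrial genes and 14.5 for the 30 membrane traffic genes. It was 1.42 for the 14 glycosyltransferases and sulfotransferases, 0.653 for the 5 ion channels and 0.362 for the 9 transcription factors with a value.

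At the other end, 12 of 388 genes had 0 alignments in wild type, which at 3 counts allows levels between 0.0358 FPKM (Gm5475) and 0.423 FPKM (BC037034) at most. Most of the 12 are gene models without a name, such as Gm10174, and their H3K4me3 was between 8.02 and 12.6 times the mean. Rbm42, an RNA-binding protein gene of the RNA processing class, was also at 0, on 543 counted bases that belong to it alone, so that 0 alignments under this counting need not mean a silent gene. Apoh, which encodes a lipid-binding plasma protein, was 1 of them with 12.6 times of H3K4me3. Among regulators, Sall3 had 11.9 times of H3K4me3 and 0.362 FPKM, Thrb 11.0 times and 0.297 FPKM, Atoh8 8.29 times and 0.273 FPKM and Foxl2 8.11 times and 0.239 FPKM. For Sall3, Thrb and Atoh8 no H3K27ac alignment was found in F123, for which the exact interval ends at 1.48 times the mean.

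Among the low-H3K27ac genes, those with the fewest H3K27ac alignments had the lowest levels. With 0 or 1 alignment in F123 the median was 1.73 FPKM (84 genes) and 42.9% were under 1 FPKM, whereas with 2, 3 and 4 alignments it was 4.45, 5.82 and 6.61 FPKM. In J1, the 44 genes under 1 time the mean had a median of 2.22 FPKM, against 5.76 between 1 and 1.5 times and 6.25 between 1.5 and 2 times. Genes of 100 kb or more had a median of 2.39 FPKM (118 genes), against 7.41 for those under 20 kb. Genes with a divergent start had a median of 4.20 FPKM, against 4.88 for those without. Genes with a bin of H3K27ac 2 to 10 kb away had 5.43 FPKM, against 4.64. The quartiles of all of these classes overlapped.

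In the mutant clones, few genes at low-H3K27ac promoters passed 3-fold, the threshold used for log2 ratios of FPKM plus 4. In CAST+/129- 1 of 388 was higher and 1 lower, where 0.321% of all 31498 genes passed in the upward and 0.305% in the downward direction. In CAST-/129+ 2 were higher and 1 lower, with 0.473% and 0.333% of all genes. In CAST-/129- 2 were higher and 1 lower, with 0.813% and 0.511% of all genes. As shares of the 388, 1 gene is 0.258% and 2 genes are 0.515%, near or below those of all genes. With 4 added to each value a gene needs at least 8 FPKM in wild type to reach 3-fold downward, which 148 of the 388 had. Among the 240 under 8 FPKM, 1, 2 and 1 passed upward in CAST+/129-, CAST-/129+ and CAST-/129- (0.417%, 0.833% and 0.417%), where 0.498%, 0.696% and 1.38% of the other 13650 autosomal protein-coding genes under 8 FPKM did. The median log2 ratio was -0.06 in CAST+/129-, -0.04 in CAST-/129+ and 0 in CAST-/129-. Over the genes acetylated in both lines it was -0.005, -0.06 and -0.05. It was 0 over all genes in each clone, whose median wild type level was only 0.353 FPKM. The 3 comparisons share the wild type library.

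**Figure D4:**
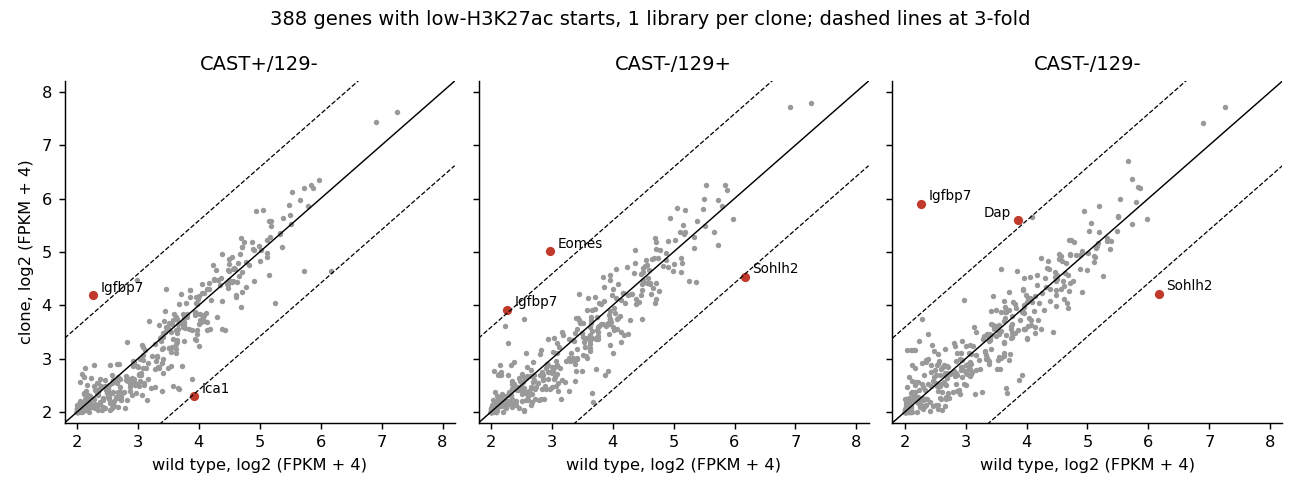
RNA level of the 388 genes with low-H3K27ac starts in each mutant clone (vertical axes) against wild type (horizontal axes), both as log2 of FPKM plus 4. The solid line marks equal levels, dashed lines mark 3-fold and larger red points are genes past 3-fold, which are 2 in CAST+/129- and 3 in each of the other clones.

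Counting error alone was exceeded far more often. In the order CAST+/129-, CAST-/129+ and CAST-/129-, the exact interval of the ratio lay below 1 for 172, 156 and 127 of the 388 genes. These were 44.3%, 40.2% and 32.7%. The interval lay above 1 for 101, 104 and 126 (26.03%, 26.8% and 32.5%). Among 21062 autosomal protein-coding genes with a value it lay below for 27.6%, 26.2% and 25.9%, and above for 25.3%, 23.7% and 25.002%. In all 3 clones, which share the wild type library, 90 of 388 genes were below and 50 above. Of the 6280 genes acetylated in both lines, 1658 were below and 1278 above, which are larger shares in both directions. This count was not made over all genes, so that it has no background share. The acetylated genes had a higher median wild type level, at 18.3 against 4.73 FPKM, and were not matched to the 388. With the whole interval beyond 2-fold in all 3 clones there were 14 below (Adarb1, Cdh22, Cdh4, Dock3, Egr4, Esyt3, Foxo6, Hdgfrp3, Ica1, Nptx1, Ppp3cc, Sohlh2, Wdr96 and Zbtb7c) and 10 above (Chst15, Dusp8, Eomes, Fat4, Gab2, Igfbp7, Nrp1, Samd4, Sema6a and Sertad4). These are 3.61% and 2.58% of the 388, where 1.6% of all genes were below and 2.1% above by this rule, and 2.11% and 2.88% of autosomal protein-coding genes. An interval wholly beyond 3-fold, a rule chosen after the data were seen, was met by 7, 13 and 20 genes upward (1.8%, 3.35% and 5.15% of 388) and by 19, 12 and 10 downward (4.9%, 3.09% and 2.58%). Over all 31498 genes it was met by 2.18%, 2.97% and 4.11% upward and by 1.98%, 1.36% and 1.7% downward. Among the 240 genes under 8 FPKM in wild type it was met upward by 2.92%, 5.42% and 7.5%, against 4.35%, 5.82% and 8.27% of the other autosomal protein-coding genes under 8 FPKM, and downward by 6.25%, 2.92% and 2.08%, against 2.56%, 1.42% and 1.57%. These genes were mostly low in wild type, where the added 4 keeps the log2 ratio far from the threshold. The groups compared here were not matched in level. Under 1 FPKM in wild type were 23.2% of the 388, against 44.9% of autosomal protein-coding genes. At 0 counts were 3.09% against 21.4%. A gene at 0 counts cannot be called lower, and with few counts an interval seldom excludes 1. The part of level in the downward shares was not tested.

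Igfbp7 had the largest upward log2 ratio in CAST+/129- and CAST-/129-, and Eomes had it in CAST-/129+. Igfbp7 encodes a secreted protein that binds insulin-like growth factors. Its alignments numbered 25 in the wild type library and 216, 82 and 394 in the clones, in the order CAST+/129-, CAST-/129+ and CAST-/129-, or 0.828, 14.3, 11.1 and 55.5 FPKM. All mutant clones lay above wild type, and CAST-/129- above the others. Relative to wild type this was 17.2-fold (11.4 to 27.2), 13.4-fold (8.49 to 21.9) and 67.1-fold (44.8 to 105), and the log2 ratios after adding 4 were 1.92, 1.65 and 3.62. Counted on both strands they were 1.41, 1.18 and 3.03, of which only the last passed 3-fold. Its H3K4me3, from wild type F123 cells, was 8.203 times the mean, and no H3K27ac alignment was found there in F123.

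Most embryonic fibroblast markers were higher in the same libraries, with 19, 20 and 22 of 22 above wild type in CAST+/129-, CAST-/129+ and CAST-/129-. The summed level of 22 such genes was 314, 512, 568 and 1575 FPKM in the order wild type, CAST+/129-, CAST-/129+ and CAST-/129-, and 6, 5 and 16 of the 22 passed 3-fold upward. Col1a1 was at 3.47, 38.9, 38.8 and 174.0 FPKM in that order. Fn1, the most abundant of them in wild type, was at 190.4, 109.6, 103.4 and 209.6 FPKM and Thy1 at 11.4, 5.68, 6.26 and 27.6 FPKM, both below wild type in CAST+/129- and CAST-/129+, and 1 of the 22 was at 0 in wild type and 0 of them in the clones. None of the 22 is a low-H3K27ac gene. Their part in the levels of Igfbp7, Dap, Serpine2 and other genes named here was not tested.

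Eomes, a T-box factor of trophoblast and primitive streak, was at 3.89, 18.3, 28.2 and 13.05 FPKM in the same order of libraries. It was above wild type in all clones and lowest among them in CAST-/129-. The ratios were 4.71-fold (4.18 to 5.30), 7.26-fold (6.42 to 8.23) and 3.36-fold (2.89 to 3.90), and the log2 ratio passed 3-fold in CAST-/129+ (2.03) and not in CAST+/129- (1.499) or CAST-/129- (1.11). The summed trophectoderm markers, of which Eomes is 1 of 8 measured, were at 21.0, 349, 586 and 554 FPKM, and those of mesoderm and primitive streak, which also hold Eomes, at 5.34, 24.3, 76.2 and 101.4 FPKM. Primitive endoderm markers summed to 199.7, 48.7, 87.5 and 53.3 FPKM and neural markers to 12.8, 41.3, 33.1 and 49.1 FPKM. The part of these cell types in the level of Eomes was not tested.

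Dap and Serpine2 differed from wild type mainly in CAST-/129-. In this order, which holds for all runs of 4 levels that follow, Dap, a regulator of autophagy, was at 10.6, 15.6, 16.3 and 44.1 FPKM, with a log2 ratio of 1.73 in CAST-/129-. Serpine2, a secreted protease inhibitor, was at 12.96, 14.8, 17.2 and 46.1 FPKM. Its log2 ratio of 1.56 in CAST-/129- was just short of 3-fold, although its ratio of 3.55-fold had an interval of 3.27 to 3.86. Both CAST+/129- and CAST-/129+ lay closer to wild type than to CAST-/129- for these genes.

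Among guidance genes, Nrp1 and Sema6a stood above wild type in every clone and Plxnc1 below it. Nrp1, a receptor for semaphorins and VEGF, was at 0.876, 3.41, 5.79 and 9.33 FPKM, and its log2 ratios of 0.60, 1.01 and 1.45 did not reach 3-fold. Sema6a, a transmembrane semaphorin, was at 0.128, 1.95, 2.84 and 4.94 FPKM, or 38.5-fold (25.98 to 59.1) in CAST-/129- on a low level. Plxnc1, a semaphorin receptor with 14.9 times the mean of H3K4me3, was at 2.92, 0.205, 0.654 and 1.17 FPKM. In CAST+/129- this was 7.02% of wild type (4.13 to 11.2), and its log2 ratio of -0.72 was far from 3-fold at this level. Plxna2 was at 1.75, 0.743, 1.95 and 3.37 FPKM, below wild type in CAST+/129- and above it in CAST-/129-.

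**Figure D5:**
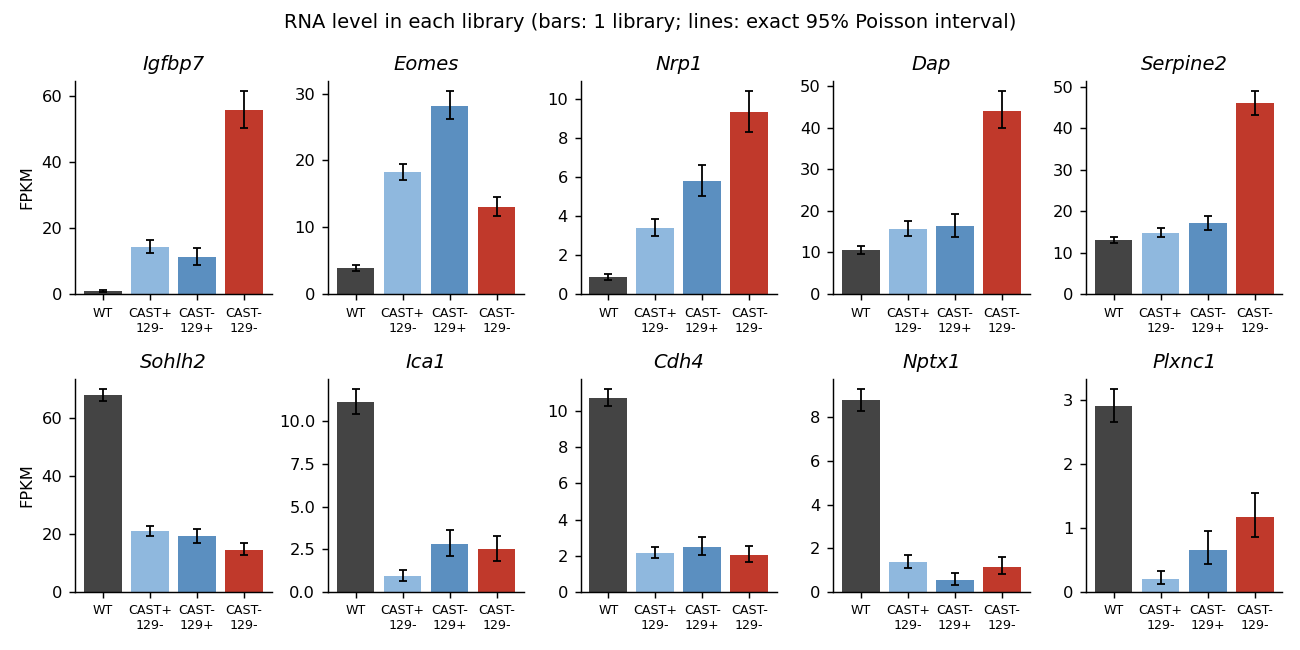
RNA level in FPKM (vertical axes) of 10 genes with low-H3K27ac starts in wild type and the 3 mutant clones (horizontal axes). Bars are single libraries and lines are exact 95% Poisson intervals, which cover counting error only. Igfbp7, Eomes, Nrp1, Dap and Serpine2 (top) lie above wild type in CAST-/129-, and Sohlh2, Ica1, Cdh4, Nptx1 and Plxnc1 (bottom) lie below wild type in all clones.

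On the low side, Sohlh2 had the largest difference in CAST-/129-. Wild type had 4003 alignments and the clones 616, 276 and 201 in the same order, or 68.0, 20.9, 19.2 and 14.5 FPKM. The clones lay close together and far below wild type, at 30.7% (28.1 to 33.4), 28.2% (24.9 to 31.9) and 21.4% (18.5 to 24.6). The log2 ratios were -1.53, -1.63 and -1.96, of which the first was short of 3-fold. Ica1, which encodes an autoantigen of secretory granules, was at 11.1, 0.914, 2.79 and 2.48 FPKM and passed 3-fold in CAST+/129- (-1.62) but not in the other clones (-1.16 and -1.23). Sohlh2 is in the published list of lowered genes and Igfbp7 in that of raised genes, and both lists were made from these libraries. Dap, which passed 3-fold upward in CAST-/129- here, was not matched by symbol to the list of raised genes.

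Several more genes were below wild type in all clones without passing 3-fold, and their wild type levels were near or under the lowest from which the threshold can be reached downward. Cdh4, a classical cadherin of the nervous system, was at 10.7, 2.15, 2.49 and 2.05 FPKM. Nptx1, a secreted synaptic pentraxin, was at 8.79, 1.38, 0.536 and 1.15 FPKM. Esyt3, an extended synaptotagmin that tethers the endoplasmic reticulum to the plasma membrane, was at 8.68, 1.44, 1.10 and 1.45 FPKM. For these 3 genes every clone lay at 23.2% of wild type or below, and the log2 ratios were between -1.18 and -1.5. Lower still in wild type were Cdh22 (1.86 FPKM, and 0.130, 0.0444 and 0.185 in the clones), Egr4 (2.35 FPKM, and 0.262, 0.385 and 0.320), Ppp3cc, a calcineurin subunit (5.69 FPKM, and 1.53, 1.29 and 1.23), and Zbtb7c (4.88 FPKM, and 0.694, 0.731 and 1.08). The counts behind Cdh22 were 171 in wild type and 6, 1 and 4 in the clones. Nptx1, Esyt3, Ppp3cc and Zbtb7c were named after their values were seen, as were Serpine2, Psmd6 and Ebna1bp2 in this account.

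Other regulators and enzymes had low wild type levels, and none of those that follow passed 3-fold after adding 4. Pou4f1 was at 1.09, 1.16, 0.756 and 0.363 FPKM and Foxo6 at 1.86, 0.490, 0.126 and 0.392 FPKM. The interval of Foxo6 in CAST-/129+ lay wholly beyond 3-fold. Nog, a secreted BMP inhibitor, was at 0.460, 1.25, 3.34 and 1.07 FPKM, highest in CAST-/129+ with 7.26-fold (4.20 to 12.9) from 22 and 39 alignments. Met was at 1.22, 2.13, 3.62 and 3.94 FPKM. Chst15 was at 0.716, 2.23, 8.24 and 6.06 FPKM and Chpf2 at 1.23, 1.58, 1.72 and 7.04 FPKM, both of the sulfotransferase and glycosyltransferase class. None of the 30 membrane traffic genes passed 3-fold in any clone, a count near the background of 0.305% to 0.813% of all genes. Their median log2 ratios were -0.10, -0.06 and 0.08, and Sec13 was at 54.5, 69.7, 67.6 and 69.4 FPKM, Copb1 at 51.4, 54.3, 54.0 and 57.3 FPKM and Cog2 at 14.96, 18.3, 7.09 and 7.84 FPKM. Among the genes of ubiquitin and of RNA processing 0 passed 3-fold as well, with Psmd6, a proteasome subunit, at 42.4, 65.3, 72.1 and 59.3 FPKM and Ebna1bp2, a factor of ribosome assembly, at 29.2, 51.1, 52.6 and 42.3 FPKM.

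Among the genes with the most H3K4me3 and with the most RNA, Sohlh2 was the one that passed 3-fold after adding 4. Zhx1 was at 3.03, 2.43, 4.48 and 5.81 FPKM and Arl8b at 36.2, 36.8, 34.9 and 34.3 FPKM. Eif3h was at 149, 193, 216 and 207 FPKM and Tbca at 116, 168, 205 and 166 FPKM, above wild type in every clone. App was at 49.2, 20.9, 31.0 and 78.6 FPKM, below wild type in CAST+/129- and CAST-/129+ and above it in CAST-/129-. Zdhhc14 was at 1.33, 0.103, 0.370 and 0.549 FPKM, from 103 alignments in wild type and 4, 7 and 10 in the clones, and its interval in CAST+/129- lay wholly beyond 3-fold. Of the 90 genes under 1 FPKM in wild type, 14, 14 and 23 reached 1 FPKM in CAST+/129-, CAST-/129+ and CAST-/129- (15.6%, 15.6% and 25.6%), beside 6.11%, 8.39% and 11.7% of all autosomal protein-coding genes under 1 FPKM and 13.9%, 17.5% and 21.9% of those acetylated in both lines. Among the 90, Igfbp7, Nrp1 and Chst15 were those that reached 5 FPKM in any of them. The shares were 1.11%, 3.33% and 3.33%, beside 0.592%, 0.993% and 2.04% of autosomal protein-coding genes and 0.797%, 1.20% and 3.19% of those acetylated in both lines. These groups under 1 FPKM were not alike in starting level. At 0 counts in wild type were 12 of the 90, against 4502 of 9463 autosomal protein-coding genes and 46 of 251 acetylated in both lines. The part of starting level in these shares was not tested. Of the 119 over 10 FPKM, Cdh4 and Ica1 were under 5 FPKM in every clone and Fyn in CAST-/129+. These shares of 1.68%, 2.52% and 1.68% lay below those of autosomal protein-coding genes over 10 FPKM, which were 2.49%, 2.93% and 3.14%. They lay above those of genes acetylated in both lines, which were 1.28%, 1.44% and 1.35%, and rest on the few genes named.

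Few of these promoters were in the published list of genes with Sox2 bound at the promoter. Of 780 autosomal genes matched to it by symbol, 8 were low-H3K27ac genes (2.05% of the 391), beside 6.95% of the starts acetylated in both lines and 3.64% of all autosomal protein-coding genes. The 8 were Ccdc132, Hip1, Magi2, Reck, Smarca2, Specc1, Tnfrsf21 and Traf6.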

How the data were processed

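ChIP-seq (3 libraries) and RNA-seq (4 libraries) were deposited by the authors as lists of aligned reads on mm9, made with Bowtie for ChIP-seq and Novoalign for RNA-seq per the labels, whose versions are not given in the sources used here. From these deposited alignments, mapped to mm9 by the authors, counts were made as distinct alignments, so that repeated reads counted once. In ChIP-seq, alignments were distinct by chromosome, 5′ end and strand. In RNA-seq, more than 1 distinct alignment could share a 5′ end. ChIP counts within 2 kb of a gene start were divided by the mean density of the autosomes of the same library, with no input subtracted. RNA counts were taken on the sense strand in exonic bases of 1 gene and converted to FPKM, with alignments on genes as library size and a minimum of 200 counted bases (31498 genes). Ratios were log2 of FPKM plus 4 with a threshold of 3-fold, after the study's methods. With 1 library per condition no test was run. Intervals are exact 95% Poisson for levels and exact binomial (Clopper-Pearson) for ratios. Python 3.11.15 with numpy 2.4.6, pandas 2.3.3, scipy 1.17.1 and matplotlib 3.10.9 was used. The ratios and their intervals were tested on simulated gene counts, and the counting of alignments was not. The simulated counts were Poisson, as the intervals assume, so that their coverage was given in advance. Of 100 genes lowered 6-fold from 1 to 10 FPKM, 0 passed 3-fold after adding 4, and of 100 raised 60 to 62 passed. At 10 FPKM or more, 61 to 75 of 100 lowered and 100 of 100 raised passed.

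Genes named were the 10 highest in H3K4me3 and in wild type level, those past 3-fold, those next to each threshold, members of the gene classes, and members in the study's gene lists, with others marked in the text. The promoters, gene classes and marker lists were chosen with earlier results of these data known. Alternatives covered thresholds, windows, reads in place of distinct alignments, library size, strand and the added value. The mean over bases other than N, the upper limit of H3K27ac in J1, the interval rule and 6 classes were added after the data were seen. The fold changes and gene lists of the study were not used as measurements.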

Additional observations from a re-analysis of the deposited data

How the results depend on the processing

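Numbers of genes past 3-fold were small (1 to 2), so that many alternatives moved them by over 1.5 times. In the order CAST+/129-, CAST-/129+ and CAST-/129-, H3K4me3 over 5 times gave 1143 starts, 1.86 FPKM in wild type, 3, 8 and 10 genes up and 3, 3 and 3 down. Over 12 times gave 60 starts and 0 in every count. H3K27ac under 1 time gave 22 starts, 1.40 FPKM and 0 in every count, and under 3 times 1075 starts, 7.52 FPKM, 2 down in each clone and 8 up in CAST-/129-. With the condition in F123 alone there were 692 starts, 2 up in CAST+/129- and 2 down in CAST-/129+, and in J1 alone 751 starts, 7.26 FPKM, 2, 2 and 3 down and 5 up in CAST-/129-. A window of 1 kb gave 655 starts, 1.11 FPKM, 2 up in CAST+/129- and 7 in CAST-/129-, and of 3 kb 197 starts with 0 up and 0 down in CAST+/129- and CAST-/129+ and 0 down in CAST-/129-. ChIP reads in place of distinct positions gave 0 up and 0 down in CAST+/129-, 1 up in CAST-/129+ and 4 up in CAST-/129-. Low H3K27ac at every transcript start gave 0 down in CAST+/129-, the mean over bases other than N 0 up in CAST+/129-, and an upper limit in J1 under 2 times 77 starts with 0 up in each clone and 0 down in CAST+/129-. RNA reads gave 2.98 FPKM and 1 up in CAST-/129+. All alignments as library size gave 0 down in CAST+/129- and 1 up in CAST-/129+, a median of ratios 0 down in CAST-/129+, and both strands 0 up in CAST+/129- and 1 up in CAST-/129+. Adding 1 gave 2, 6 and 11 up and 9, 6 and 6 down, and adding 10 gave 0, 0 and 1 up and 0 down in CAST+/129- and CAST-/129+. A threshold of 2-fold gave 2, 5 and 13 up and 8, 5 and 5 down among the 388 genes. Among all 21062 autosomal protein-coding genes it gave 250, 331 and 572 up and 362, 404 and 472 down. A threshold of 5-fold gave 0, 0 and 1 up and 0 down. The interval rule gave 7, 13 and 20 up and 19, 12 and 10 down. The cause of these differences between settings was not tested. Apart from the 2-fold and interval rules, no count over all genes is given for the alternatives, so that their counts describe the list only. The median log2 ratio ranged from -0.10 to 0.02, -0.10 to 0.02 and -0.03 to 0.11, so that its sign depended on the setting in every clone.

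For 12 of the named genes, 9 alternatives in the 3 clones gave 324 values, of which 266 stayed on the same side of the threshold, 20 no longer passed it and 38 came to pass it. Of the last, 18 came from the 2-fold threshold and 17 from adding 1. Igfbp7 in CAST-/129+ was at 1.39 with RNA reads and 1.36 with all alignments, Ica1 in CAST+/129- at -1.42 and -1.38, and Sohlh2 in CAST-/129+ at -1.58 with a median of ratios, all short of 3-fold. Serpine2 in CAST-/129- passed with RNA reads (1.79) and a median of ratios (1.62), and Sohlh2 in CAST+/129- with RNA reads (-1.73). No paired analysis was possible because every condition is 1 library, and no replicate could be left out. The choice of promoters was limited by the depth of the F123 library of H3K27ac, with a mean of 2.50 alignments per window, by the window, since 1 kb kept 150 and 3 kb kept 90 of the 391 starts, and by the counting of repeated reads, since ChIP reads gave 479 starts that shared 257.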
